A study of Mus musculus with 8 samples.

Results

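Of the genes measured in 8 tumours of 4T1 cells, 51 encode non-collagen proteins of the extracellular matrix or the lysyl oxidases that cross-link it. They were chosen by name, as genes of elastic fibres and microfibrils, small and large proteoglycans, laminins and other basement membrane proteins, matricellular proteins, adhesive glycoproteins and lysyl oxidases. A probe belonged to the set where its RefSeq accession carried one of these names, which gave 72 of the 55681 non-control probes and all 51 genes, among 16377 named genes tested. Each of the 51 had at least 1 probe well above background on all 8 arrays, so no gene entered through one group alone.

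4T1 is a mouse mammary carcinoma line. Before grafting, the cells carried either an empty adenovirus (control) or Adenoviral-PRH, given for 24 h at an MOI of 50, and they were then placed in fat pad number 3 of female BALB/C mice aged 6 to 8 weeks. Tumours were taken on day 22, which gave 4 control and 4 PRH arrays, numbered in both groups as mouse 1, 2, 3 and 5. PRH is the homeodomain transcription factor encoded by Hhex. The host animals keep their own stroma, and the labels name both whole tumours and endothelial isolates as the source of the RNA.

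The matrix is the protein scaffold around cells. Fibrillin microfibrils hold elastin and store latent growth factors, lysyl oxidases cross-link elastin and collagen, laminins form the sheet of the basement membrane together with nidogens and perlecan, and matricellular proteins such as thrombospondins and tenascins adjust adhesion without bearing load. In mammary tumours most of these proteins come from fibroblasts and other stromal cells, and some also from the carcinoma cells.

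Values are log2 intensities of a probe relative to the 75th percentile of its array, and a gene is represented by its brightest probe unless another is named. Levels of different genes cannot be compared on this scale, because each probe has its own response. That percentile was 1094 ± 131 on control and 722.4 ± 41.2 on PRH arrays (mean ± SD, n = 4 each). Median signals overlapped, at 97.0 to 113 on control and 88.9 to 101 on PRH arrays. Between 64.2% and 69.8% of probes were well above background on control arrays, and between 72.2% and 73.9% on PRH arrays. All arrays lay on 1 slide. In the array names, 1 field whose meaning the headers do not state separates the groups completely, so group and that field cannot be told apart. The Hhex probe read lower on the arrays labelled PRH, at -1.67 ± 0.14 against -0.58 ± 0.20 (n = 4 each, limma adjusted p = 0.00686). This reading runs opposite to the label, and the group is called PRH-labelled here. Whether the probe reads the transcript of the delivered gene was not tested. In bulk RNA, fewer cells of a type and less RNA per cell cannot be told apart. The p-values measure the spread between these 8 samples, in a fit on group alone that leaves the mouse number out unless a block is named.

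Few of the 51 matrix genes differed between the groups. With limma, 2 were called lower in PRH-labelled tumours, the fibrillin gene Fbn1 and the lysyl oxidase gene Lox. Another 2 were called higher, the versican gene Vcan and Ecm1, which encodes extracellular matrix protein 1. Both higher calls rest on the brightest probe, and the other probe above background of each gene had a difference below 0. The other 47 did not pass the threshold (adjusted p under 0.05). Centring on 7 spike-in probes left 0 calls among the 51 (limma), where 0 of the named genes were called either. In that fit 4 of the 51 stood at an unadjusted p under 0.05, beside 2587 of 16377 named genes. The adjusted p of Fbn1 was then 0.14. Among all named genes 10.6% were called higher and 12.9% lower, against 3.92% in each direction here, and among all 34543 items tested, unnamed probes included, 17.2% and 8.67%. The median difference over the 51 genes was -0.21, beside -0.02 over named genes and 0.29 over all items. At an unadjusted p under 0.05 there were 13 of the 51, beside 6231 of 16377 named genes and 13438 of all 34543 items. The groups did not overlap for 6 genes higher and 4 lower in PRH-labelled tumours, beside 13.4% and 17.2% of named genes and 20.1% and 11.3% of all items.

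**Figure D1:**
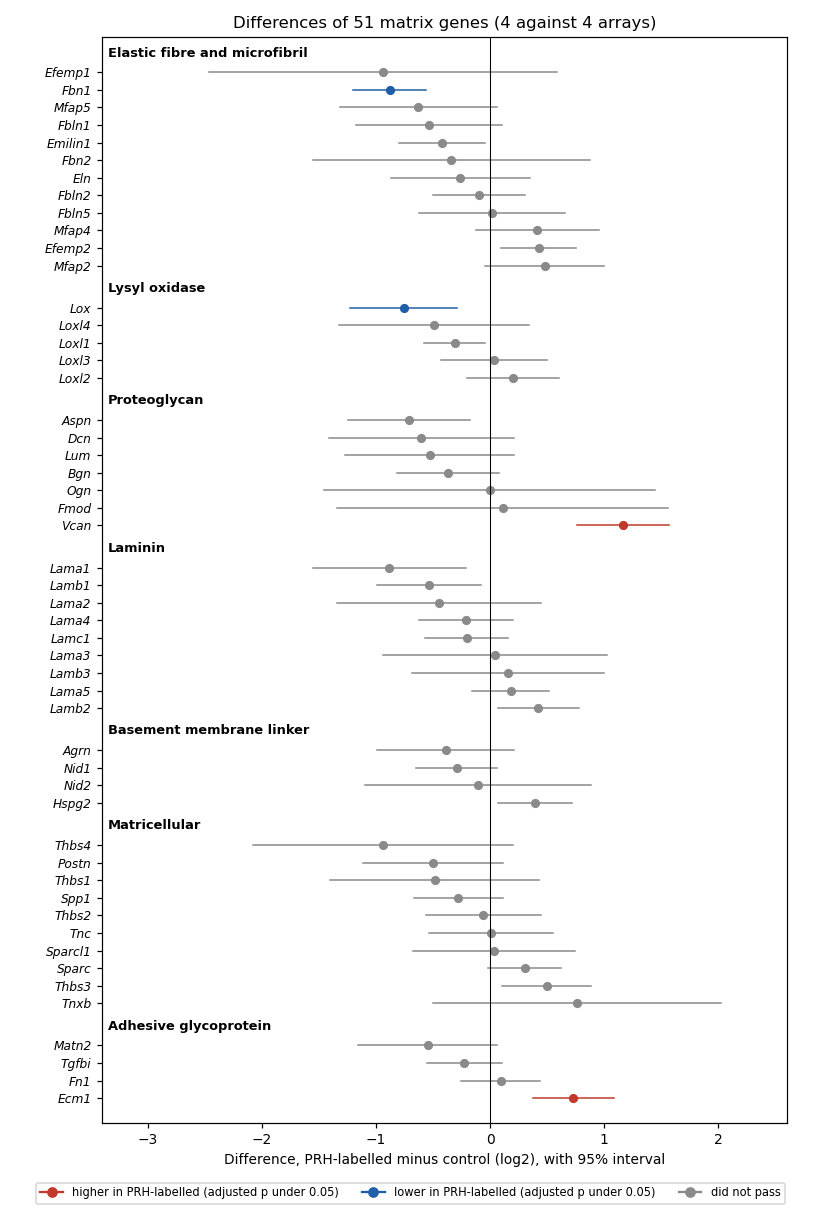
Difference between PRH-labelled and control tumours (log2, x axis) for each of the 51 matrix genes, grouped by role, with points for the estimate and lines for the 95% interval of the limma fit (4 arrays a group). Fbn1 and Lox are lower, Vcan and Ecm1 are higher, and the widest intervals belong to Efemp1, Fmod and Ogn.

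Elastic fibre and microfibril genes came first in the list, and 1 of 12 fell. Fbn1 encodes fibrillin-1, the main microfibril protein. Its probe read 1.31, 1.30, 1.55 and 1.28 in control tumours 1, 2, 3 and 5 and 0.46, 0.32, 0.44 and 0.69 in the PRH-labelled ones. Every PRH-labelled tumour lay below every control tumour. The difference was -0.88 (SE 0.136), a 1.84-fold lower level, with limma adjusted p = 0.0072, and Fbn1 remained called lower in each of the 8 fits without 1 array and in all 5 scalings (75th percentile, median, quantile, normexp and the authors' values), but not with spike-in centring. The gene has 1 probe on the array, so no other probe bears on it. Fbn2, the fibrillin of developing tissue, stood at -0.34 (95% interval -1.56 to 0.87) and did not pass.

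The other elastic fibre genes did not pass. Over all 12, differences ran from -0.94 for Efemp1 to 0.48 for Mfap2, with 4 above 0 and 8, Fbn1 included, below. Efemp2 encodes fibulin-4, which brings lysyl oxidase to elastin. It read 4.37, 4.32, 4.69 and 4.51 in control tumours and 4.88, 5.02, 4.97 and 4.72 in PRH-labelled ones, higher without overlap but not past the threshold (difference 0.42, SE 0.140, adjusted p = 0.0605). It passed with quantile normalization and normexp, and after median centring its sign turned (-0.04). Emilin1, an elastin-associated glycoprotein, read -0.82, -0.46, -0.74 and -0.79 in control and -0.95, -1.04, -1.46 and -1.05 in PRH-labelled tumours. These groups did not overlap either, yet the difference of -0.42 (SE 0.162) did not pass (adjusted p = 0.0930). Emilin1 passed as lower in the other 4 scalings.

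Efemp1, the gene of fibulin-3, gave the largest difference in the set that did not pass apart from that of Thbs4, and a single control tumour stood far above the rest. It read -0.14 in control tumour 1 but -3.04, -3.01 and -2.48 in the others, and -2.56, -3.27, -3.73 and -2.86 in PRH-labelled tumours (difference -0.94, 95% interval -2.46 to 0.59, and -0.26 without control 1). Elastin itself (Eln, -0.26, 95% interval -0.87 to 0.35) and the fibulin genes Fbln1 (-0.53), Fbln2 (-0.09) and Fbln5 (0.02) did not pass, nor did the microfibril genes Mfap4 (0.41) and Mfap5 (-0.63).

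Of the 5 lysyl oxidase genes 1 fell. Lox encodes the founding enzyme of the family, which oxidises lysines of collagen and elastin so that the fibres cross-link. Its brightest probe read -0.33, 0.34, 0.23 and -0.19 in control tumours and -0.79, -0.72, -1.01 and -0.46 in PRH-labelled ones. The groups did not overlap, and the gap between control tumour 1 and PRH-labelled tumour 5 was small. The difference was -0.76 (SE 0.202, 1.69-fold, limma adjusted p = 0.0299). It passed in all 5 scalings, but in only 2 of the 8 fits that leave out an array, its adjusted p lying between 0.015 (without control 1) and 0.0751 (without control 2). The other Lox probe stood at -0.26 and did not pass on its own (adjusted p = 0.343 over all probes), and the 2 probes changed unequally (within-array difference 0.50, SE 0.160, adjusted p = 0.0474).

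The LOX-like genes, whose enzymes share the catalytic domain of Lox, did not pass in the 75th percentile scaling. Loxl1, the form that maintains elastic fibres, read 2.92, 3.01, 2.82 and 3.00 in control and 2.62, 2.63, 2.54 and 2.71 in PRH-labelled tumours. All 4 PRH-labelled values were lower than all control values, but the difference was small (-0.31, SE 0.115, adjusted p = 0.0848), and its other probe stood at -0.05. Loxl1 passed as lower after median centring (-0.78, adjusted p = 0.0147), while with normexp and in the authors' values it stood at -0.10 and -0.09. Loxl2 stood at 0.20 on its brightest probe, and at -0.15 and 0.80 on its others. The last of these read 1.35, 1.11, 0.81 and 1.01 in control and 1.98, 1.62, 2.04 and 1.86 in PRH-labelled tumours, and passed when every probe was tested on its own (adjusted p = 0.0125). Tested in that way, 16.1% of all 39463 probes were higher and 10.1% lower. The call for Loxl2 thus depended on the probe. Loxl3 (0.04, 95% interval -0.43 to 0.50) and Loxl4 (-0.49, 95% interval -1.33 to 0.34) did not pass.

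Among 7 proteoglycan genes 1 was called higher, on its brightest probe alone. Vcan encodes versican, a large hyaluronan-binding proteoglycan of provisional and tumour matrix that is made in several splice forms. The brightest Vcan probe read 0.20, -0.36, -0.40 and -0.27 in control tumours and 1.15, 0.81, 1.02 and 0.87 in PRH-labelled ones. The groups lay well apart, with a difference of 1.17 (SE 0.174, 2.25-fold higher, limma adjusted p = 0.00696), and this probe was called in all 5 scalings and in each of the 8 fits without 1 array. The second Vcan probe, which carries the accession of another transcript of the gene, did not follow it. It read -0.08, -0.27, -0.34 and -0.47 in control and -0.82, -0.82, -0.88 and -0.25 in PRH-labelled tumours, a difference of -0.40 that did not pass (adjusted p = 0.141 over all probes). The remaining Vcan probe, which carries the same accession as the brightest one, was well above background on 0 of the 8 arrays. Probes of the same accession thus also disagreed.

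Both Vcan probes sit on the same arrays, so a constant shift per array leaves their ratio as it is. The second probe relative to the first averaged -0.09 ± 0.19 over control tumours, whereas PRH-labelled tumours averaged -1.65 ± 0.38 (log2, n = 4 each). Every PRH-labelled array had a lower ratio than every control array. This unequal change was -1.57 (SE 0.203, limma adjusted p = 0.00333 over all such ratios) and was the largest among the probe pairs of the 51 genes. It came to -1.68 when arrays were quantile-normalized, to -1.49 under normexp and to -1.57 on the values the authors deposited. The files do not give the probe sequences, so which exons each probe reads was not tested. The mean of both probes did not pass (0.38, adjusted p = 0.102).

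The small leucine-rich proteoglycans, which bind collagen fibrils and set their spacing, gave no call. Dcn (decorin) differed by -0.60 (95% interval -1.42 to 0.21), Lum (lumican) by -0.53 (-1.27 to 0.21) and Bgn (biglycan) by -0.37 (-0.81 to 0.08). Aspn, the asporin gene, read -1.57, -1.08, -0.88 and -1.26 in control and -2.31, -2.09, -1.72 and -1.50 in PRH-labelled tumours. Its groups overlapped between control tumour 1 and PRH-labelled tumour 5, and the difference of -0.71 (SE 0.231) just missed the threshold (adjusted p = 0.0574), though it passed when mouse number was blocked (0.0334) and after quantile, normexp or median scaling. Fmod ran from -2.99 to -0.38 among control tumours and Ogn from -2.45 to -0.48, and their intervals were wide (-1.34 to 1.56 and -1.45 to 1.45).

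Laminins are trimers of an alpha, a beta and a gamma chain, and 0 of the 9 laminin genes passed (limma). At an unadjusted p under 0.05 there were 3, Lama1, Lamb1 and Lamb2, beside 6231 of 16377 named genes. Lama1, an alpha chain mainly of embryonic basement membranes, read -1.23, -0.72, -1.58 and -1.87 in control and -2.58, -1.76, -2.40 and -2.20 in PRH-labelled tumours. The groups overlapped only between control tumour 5 and PRH-labelled tumour 2. The difference of -0.88 (SE 0.289, adjusted p = 0.0589) did not pass, but did in the other 4 scalings and when mouse number was blocked (adjusted p = 0.0289). Lama2, the alpha chain of muscle laminin, stood at -0.45 on its brightest probe, and at -1.43 on its other probe. That other probe read -1.02, -1.80, -1.13 and -1.59 in control and -2.67, -2.79, -3.10 and -2.71 in PRH-labelled tumours, without overlap, and passed on its own (adjusted p = 0.00677 over all probes).

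The beta chains pointed in different directions. Lamb2, the beta chain of mature vessel and synaptic laminins, read 1.40, 1.50, 1.04 and 1.47 in control and 1.62, 1.72, 1.92 and 1.85 in PRH-labelled tumours, higher without overlap (difference 0.42, SE 0.152, adjusted p = 0.0796), though its sign turned after median centring (-0.04). Lamb1, the more widespread beta chain, stood at -0.53 (SE 0.197, adjusted p = 0.0847). Lamb1 passed as lower with quantile normalization (adjusted p = 0.0426) and median centring (0.0252), and Lamb2 as higher with quantile normalization (0.0452). Within arrays, the log2 ratio of the Lamb2 probe to the Lamb1 probe was -3.55, -4.11, -4.42 and -4.34 in control and -3.17, -3.29, -3.08 and -3.04 in PRH-labelled tumours. The ratio was higher in all 4 PRH-labelled tumours, by 0.96 on average. A constant shift per array (median or spike-in centring) leaves this value as it is, and it came to 1.05 when arrays were quantile-normalized, 0.83 under normexp and 0.86 on the authors' table, without overlap in each. This pair was chosen after its values were seen and is given without a test. The other scalings reuse the same arrays, so the repeated values cannot count as further evidence for the pair. How often the ratios of other gene pairs lie apart between the groups was not tested. Between probes of the same gene, 33.7% of 4920 ratios over all named genes did not overlap. Lama3 and Lamb3, chains of the epithelial laminin that anchors hemidesmosomes, differed by 0.04 and 0.16, and both were highest in control tumour 5 (2.85 and 2.52). Lama4 (-0.21), Lama5 (0.18) and Lamc1 (-0.20) did not pass either.

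**Figure D2:**
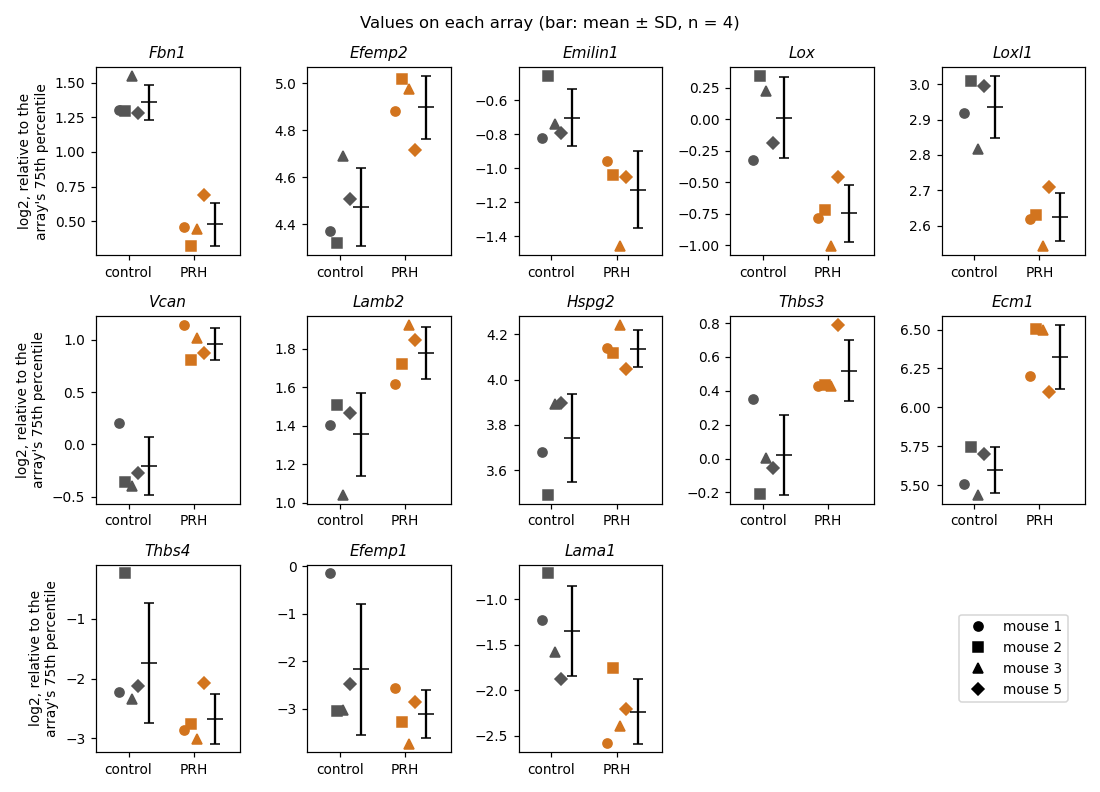
Value on each array (y axis, log2 relative to the 75th percentile of that array) for the 13 matrix genes with a call, without overlap between the groups or with the 3 largest other differences, in control and PRH-labelled tumours. Symbols mark the mouse number and bars the mean and SD of 4 arrays. In Fbn1, Lox, Vcan and Ecm1 the groups are apart, while the Thbs4 and Efemp1 control means are pulled up by 1 tumour each.

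Proteins that link the laminin and collagen IV networks gave no call among 4 genes. Hspg2 encodes perlecan, the heparan sulfate proteoglycan of basement membranes. It read 3.68, 3.49, 3.89 and 3.90 in control and 4.14, 4.12, 4.24 and 4.05 in PRH-labelled tumours, higher without overlap by 0.40 (SE 0.139, adjusted p = 0.0738). Hspg2 passed after normexp (0.47) and in the authors' values (0.46), its sign turned after median centring (-0.07), and its other probe stood at -0.23. Agrn, the agrin gene, stood at -0.39 on its brightest probe and at 0.80 on its other, and neither passed. The nidogen genes Nid1 (-0.29, 95% interval -0.65 to 0.06) and Nid2 (-0.10, -1.10 to 0.89) did not pass, and the other Nid1 probes stood at 0.45 and -0.37.

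Of 10 matricellular genes 0 passed (limma). At an unadjusted p under 0.05 there was 1, Thbs3, beside 6231 of 16377 named genes. Thbs3, which encodes a pentameric thrombospondin, read 0.35, -0.21, 0.00 and -0.06 in control and 0.43, 0.43, 0.43 and 0.79 in PRH-labelled tumours. It was higher without overlap by 0.50 (SE 0.168, adjusted p = 0.0646), its other probe gave a like value (0.44), and it passed in 1 of the 8 fits that leave out an array (without control 1, adjusted p = 0.0183). It passed in 0 of the 5 scalings (limma), and after median centring the difference was 0.03 (adjusted p = 0.898). Thbs4, a thrombospondin of tendon and muscle, read -0.23 in control tumour 2 and -2.23, -2.34 and -2.13 in the others, and -2.86, -2.75, -3.00 and -2.07 in PRH-labelled tumours (difference -0.94, 95% interval -2.08 to 0.20, and -0.44 without control 2). Control tumour 2 also held the highest summed level of the 6 skeletal muscle markers (14.0, against 2.07 to 6.40 on the other 7 arrays), with 5 of them at their highest, whose part in the Thbs4 values was not tested.

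The better known matricellular genes of tumour stroma did not pass. Postn (periostin) stood at -0.50 (95% interval -1.11 to 0.11), Tnc (tenascin-C) at 0.00 (-0.54 to 0.55), Spp1 (osteopontin) at -0.28 (-0.67 to 0.11), Thbs1 at -0.49 (-1.40 to 0.43) and Thbs2 at -0.06 (-0.56 to 0.44). Sparc, a collagen-binding glycoprotein, differed by 0.30 (-0.02 to 0.62) and its relative Sparcl1 by 0.04. Tnxb, the tenascin of loose connective tissue, read 0.84 in control tumour 1 and -1.64, -1.38 and -1.35 in the others, and 0.19, -0.28, -0.52 and 0.13 in PRH-labelled tumours. All 4 PRH-labelled values were above 3 of the control values and below the fourth, so the difference of 0.76 did not pass (adjusted p = 0.33). Without control tumour 1 it was 1.34 and passed (adjusted p = 0.00425).

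Among 4 adhesive glycoproteins 1 was called higher, on its brightest probe alone. Ecm1 encodes a secreted protein of skin and vessel matrix that binds perlecan. Its brightest probe read 5.51, 5.74, 5.44 and 5.70 in control tumours and 6.20, 6.50, 6.50 and 6.10 in PRH-labelled ones. The groups did not overlap, and the difference was 0.73 (SE 0.153, 1.66-fold higher, limma adjusted p = 0.0136). Ecm1 was called in each of the 8 fits without 1 array (adjusted p up to 0.0411) and in 4 of the 5 scalings, all but median centring. Its other probe stood at -0.31 (adjusted p = 0.295 over all probes), reading 1.26, 1.97, 1.57 and 2.00 in control and 1.51, 1.14, 1.55 and 1.36 in PRH-labelled tumours. The ratio of that probe to the first fell by 1.04 (SE 0.188, adjusted p = 0.00701), and the mean of both did not pass (0.21, adjusted p = 0.355). Fn1, the fibronectin gene, read 7.57 ± 0.22 in control and 7.67 ± 0.11 in PRH-labelled tumours (difference 0.09, 95% interval -0.25 to 0.44). Tgfbi (-0.22) and Matn2 (-0.55) did not pass.

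More than 1 probe was well above background for 17 of the 51 genes, and these probes often disagreed. They gave 19 ratios of another probe to the brightest one, and 7 of them differed between the groups (limma, 36.8%), those of Ecm1, Hspg2, Lama2, Lox, Nid1, Sparc and Vcan. Across all named genes 31.7% of 4920 such ratios did, so the share here was near the background. For Sparc the brightest probe stood at 0.30 and the other at -0.27, with an unequal change of -0.57 (SE 0.146, adjusted p = 0.022). Thbs3, Fbln1, Fbn2, Loxl1, Loxl4 and Mfap2 had probes of 1 sign whose ratio did not pass. When the probes of a gene were averaged instead, 0 of the 51 were called higher and 2 lower (limma), beside 9.36% and 12.5% of named genes. The 2 were Fbn1 (-0.88) and Lama2 (-0.94, adjusted p = 0.0489). At an unadjusted p under 0.05 there were 12 in either direction, beside 6035 of 16377 named genes.

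**Figure D3:**
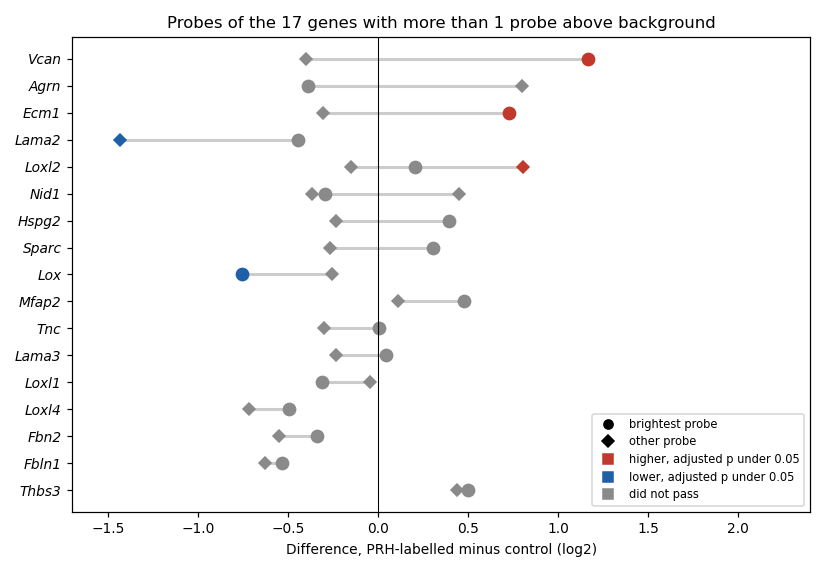
Difference between PRH-labelled and control tumours (log2, x axis) for each probe of the 17 matrix genes that have more than 1 probe above background, with genes ordered by the distance between their probes. Circles are the brightest probe and diamonds the others. The brightest Vcan and Ecm1 probes are called higher while their other probes lie below 0, and another probe of Lama2 and of Loxl2 is called where the brightest probe is not.

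PRH binds DNA at sites with an ATTA core, so the 250 bases upstream of the genes that passed are shown, from the RefSeq table of build GRCm38.p6. Of the 51 genes 32 had an entry, with 42 start sites. The core ATTA, or TAAT on the other strand, is in capitals, and overlapping matches were counted. Lox is named only. The intervals are chr2:125506439-125506688 for Fbn1, chr13:89742513-89742762 for Vcan and chr3:95739570-95739819 for Ecm1, all on the minus strand and written 5′ to 3′.
Fbn1: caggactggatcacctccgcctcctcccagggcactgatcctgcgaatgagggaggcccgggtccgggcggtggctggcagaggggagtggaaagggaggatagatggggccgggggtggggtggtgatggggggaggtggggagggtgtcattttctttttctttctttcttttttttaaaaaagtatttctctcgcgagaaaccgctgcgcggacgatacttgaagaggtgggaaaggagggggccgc
Vcan: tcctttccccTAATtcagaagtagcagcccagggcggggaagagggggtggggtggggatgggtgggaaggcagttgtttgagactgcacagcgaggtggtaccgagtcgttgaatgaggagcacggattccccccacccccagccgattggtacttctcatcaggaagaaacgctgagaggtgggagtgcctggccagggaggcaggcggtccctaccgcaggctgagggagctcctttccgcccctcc
Ecm1: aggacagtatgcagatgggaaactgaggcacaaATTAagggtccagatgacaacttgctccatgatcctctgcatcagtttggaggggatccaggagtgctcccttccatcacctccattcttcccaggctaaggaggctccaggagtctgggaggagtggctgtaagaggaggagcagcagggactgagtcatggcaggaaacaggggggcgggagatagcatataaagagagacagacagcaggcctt
The upstream windows of Vcan and Ecm1 held 1 match each and that of Fbn1 held 0. Over the 42 start sites of the set 50% of these windows held a match, beside 54.9% of 32851 start sites in the table. The longer string ATTAA, or TTAAT, stood in 26.2% and 24.9% of them, and of the 3 windows shown only that of Ecm1 held it. A match is a string of letters and not a known binding site.

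The 51 genes varied more among control than among PRH-labelled tumours. The SD was larger in the control group for 41 of them (80.4%), which was also the case for 69.8% of named genes, and the median SD was 0.37 in control and 0.21 in PRH-labelled tumours. No control tumour was high throughout. Efemp1, Tnxb, Dcn and Lama2 were highest in control tumour 1, which also carried the highest summed level of adipocyte markers (48.9, against 3.26 to 12.6 on the other 7 arrays), with all 5 measured markers at their highest. Sparcl1, Thbs4, Lama4 and Nid2 were highest in control tumour 2. Control tumour 3 had the highest Eln, Lum, Postn and Thbs2. Its summed level of endothelial markers was the lowest (9.90, against 17.6 to 30.1 elsewhere), with all 9 measured endothelial markers at their lowest there. Its summed level of fibroblast markers was the highest (439, against 311 to 396 elsewhere), with 2 of the 9 at their highest. Of 7 macrophage markers 5 were highest in that tumour. All 5 adipocyte, 6 of 8 pericyte and smooth muscle and 5 of 7 epithelial markers were lowest there. Of the 6 leukocyte markers 2 were lowest in that tumour, S100a8 and S100a9, while Ncr1 was highest there. Whether these other cells bear on the matrix values was not tested. Among PRH-labelled tumours, number 5 was the highest for 22 of the 51 genes and number 1 the lowest for 22.

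**Figure D4:**
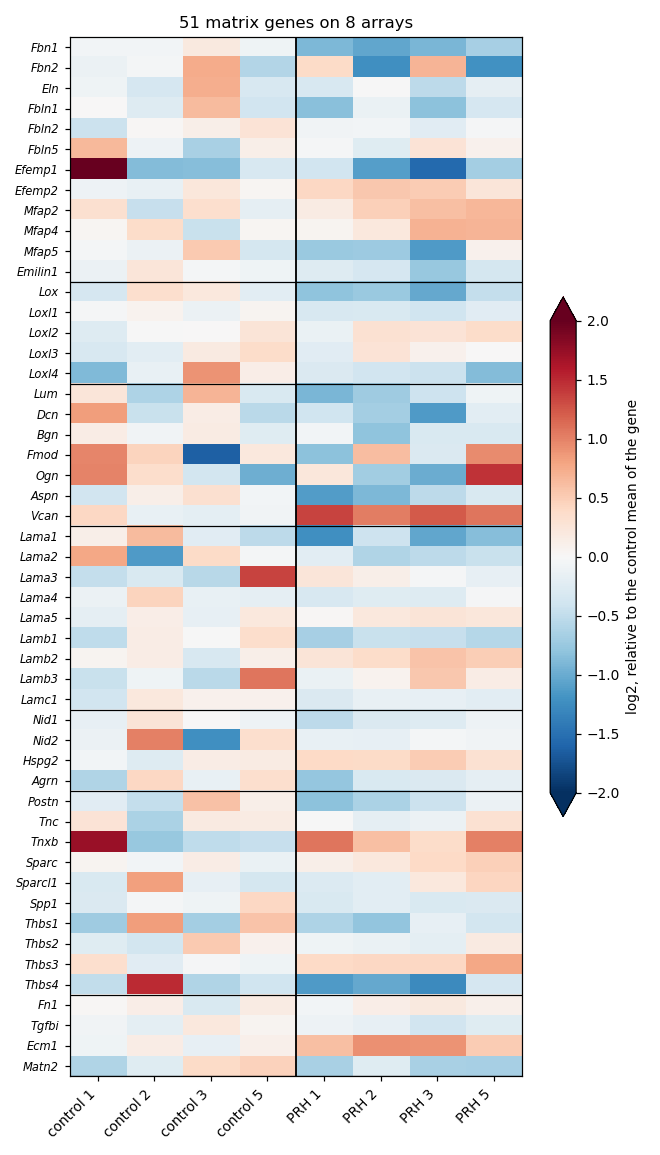
Log2 value of each of the 51 matrix genes (rows, in the order of their roles) on the 8 arrays (columns), relative to the control mean of the gene. Colour runs from -2 to 2, with stronger values shown at the ends. Single control tumours stand out for Efemp1, Tnxb, Thbs4, Lama3 and Fmod, while Fbn1, Vcan and Ecm1 change colour between the groups.

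Markers of the cells that make matrix were present in both groups. All 9 fibroblast markers were above background on every array, with summed levels of 311 to 439 in control and 321 to 396 in PRH-labelled tumours. Such sums, here and for the other lists, add linear signals, so the brightest probes weigh most in them. For fibroblasts these are Col1a1, Col1a2, Col3a1 and Thy1, while Pdgfra and Pdgfrb weigh little. Of the 9 markers 2 fell, the PDGF receptor genes Pdgfra (-0.73, limma adjusted p = 0.012) and Pdgfrb (-0.66, 0.0389), and 0 rose. The collagen and other fibroblast genes on that list did not pass. Pdgfrb passed in 1 of the 8 fits that leave out an array (adjusted p up to 0.0993, without control 2). All 7 epithelial markers were above background, with sums of 291 to 361 in control and 375 to 459 in PRH-labelled tumours, and 1 of them, Krt18, was called higher (0.52, adjusted p = 0.0274, in the 75th percentile scaling alone and in 3 of the 8 fits without 1 array). Krt8 went the other way without overlap (-0.44, adjusted p = 0.0793), so the sums do not stand for every marker of the list. The Krt18 probe was the brightest of the list, at a mean of 7.60 in control and 8.13 in PRH-labelled tumours. It therefore weighs most in the epithelial sums, and whether the groups stay apart without it was not tested. The 9 measured endothelial markers summed to 9.90 to 25.9 and 23.1 to 30.1, with Kdr called higher (1.17, and in 2 of the 8 fits without 1 array) but its other probe at -0.48. Of 8 pericyte and smooth muscle markers 1 was called higher, Tagln (0.91, and in 4 of the 8 fits), with sums of 60.5 to 86.0 and 76.9 to 106. Of 7 macrophage markers 2 were called lower, Lyz2 (-0.86) and Mrc1 (-1.16, and in 4 of the 8 fits), with sums of 182 to 274 and 170 to 237. Their part in the differences of matrix genes was not tested.

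Related matrix genes outside the 51, drawn from a list of 83, gave few calls too. Of the 68 that were measured 5 were called higher and 2 lower (7.35% and 2.94%, beside 10.6% and 12.9% of named genes), and their median difference was 0.13. Bmp1, the protease that trims procollagens and activates the lysyl oxidase precursor, rose by 0.93 (SE 0.130, limma adjusted p = 0.00686), and 1 of its 2 other probes also passed (0.81) while the last stood at 0.03. Pcolce, the enhancer of that protease, was higher by 0.48 (adjusted p = 0.0446), named here after its value was seen. It passed in 2 of the 8 fits that leave out an array (adjusted p up to 0.118, without control 5), in 1 of the 5 scalings, and not when mouse number was blocked (0.0544). Tnr, a tenascin of nervous tissue, was higher by 1.14 (adjusted p = 0.00776), the proteoglycan gene Spock2 by 1.10 (0.0122) and Crispld2 by 1.13 (0.0239). The Tnr and Spock2 probes were dim, with means of -4.01 and -4.60 in control and -2.87 and -3.50 in PRH-labelled tumours. Crispld2 passed in 5 of the 8 fits that leave out an array (adjusted p up to 0.0653, without PRH 5). The 2 called lower were Abi3bp (-1.65, adjusted p = 0.00711), and Frem1, a basement membrane gene (-1.73, 0.0291). Frem1 passed in 3 of the 8 fits that leave out an array (adjusted p up to 0.0719, without PRH 1) and not when mouse number was blocked (0.0621). Of the 5 scalings, Abi3bp and Frem1 passed in 5, Bmp1 and Crispld2 in 4, Tnr in 3 and Spock2 in 2.

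The count of calls among the 51 depended on the processing. Fbn1 and Lox were called lower and Vcan higher in all 5 scalings, and Ecm1 higher in 4 of them. Median centring, which moved the median difference of named genes from -0.02 to -0.49, called 1 higher and 17 lower, beside 4.18% and 32.5% of named genes. Quantile normalization called 4 and 6 (beside 8.55% and 18%), normexp 4 and 5 (8.04% and 18.5%) and the authors' values 3 and 4 (8.07% and 17.3%). With mouse number as a block 2 were higher and 4 lower (beside 15% and 12.4%), the added ones being Aspn and Lama1. With 4 arrays in each group, precision is limited by their number.

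**Figure D5:**
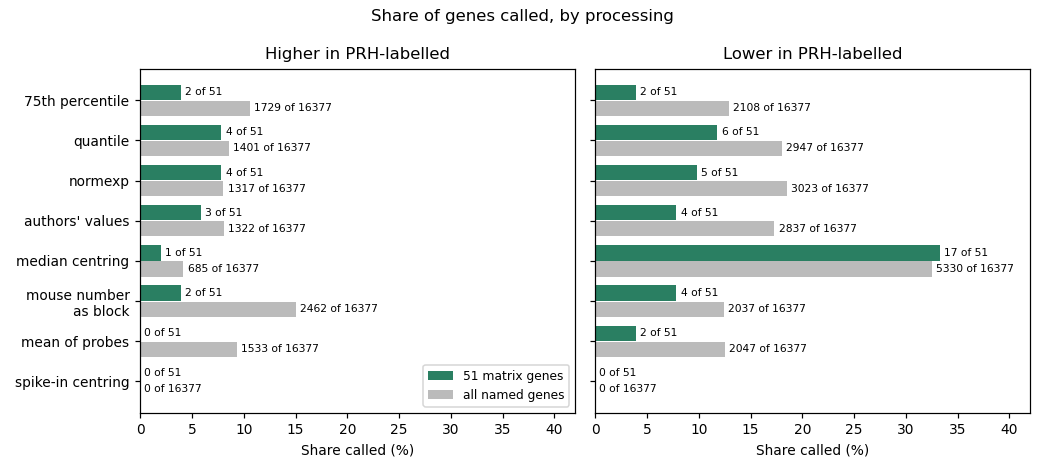
Share of genes called higher (left) or lower (right) in PRH-labelled tumours (x axis, percent) for the 51 matrix genes and for all named genes, under 8 ways of processing (rows), with counts beside the bars. The share among matrix genes is below that among named genes in each row with calls, except for 17 of 51 lower calls after median centring, which is about level with the 5330 of 16377.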

How the data were processed

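Total RNA was labelled with Cy3 and hybridised to 1-colour arrays. Per the file headers, the deposited spot intensities come from Agilent Feature Extraction 10.7.3.1 on a mouse design placed on mm9, whereas the submitters' processing notes name version 9.1, and the processed signal is corrected for background. The authors also deposited a table of normalized intensities, whose background correction is not given in the sources used here.

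Control spots were left out, as were outlier spots where a probe had others. The 75th percentile of each array was subtracted from its log2 processed signals, which were then averaged per probe. Testing took in the 39463 probes that 4 or more of the 8 arrays showed well above background. Names came from RefSeq accessions through a table of GRCm38.p6 (26582 probes matched). With 1 item per gene, its brightest probe, and each unnamed probe, 34543 items were fitted with limma 3.58.1 in R 4.3.3 on group alone (two-sided, Benjamini-Hochberg, threshold 0.05). Only the limma fit was tested on simulated data, with noise drawn independently for each array. The averaging, scaling, naming and choice of probe were not part of that test. A probe's ratio to the brightest probe of its gene was fitted in the same way over all 4920 ratios, an analysis added after the data were seen, as was the test of each probe on its own (39463 probes) and both within-array ratios under each scaling.

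The members and lists were chosen with earlier results of these data known. Genes with a call, without overlap between groups, or with the 3 largest other differences are given on every array, and of related genes up to 4 called in each direction by smallest p. Deviations from the group mean correlated at 0.203, 0.436, 0.665 and 0.274 between the arrays of mouse 1, 2, 3 and 5. All were above 0.1, so the mouse number was also fitted as a block. Another field of the array names, also of unstated meaning, followed the mouse number in both groups. The correlations and the block therefore cannot tell mouse number and that field apart. The main fit, with its calls and adjusted p-values, leaves this pairing out. Alternatives were 5 other normalizations, with normexp run on median spot signals because the files hold no mean signals, 2 other filters, the mean of probes, outlier spots kept, the mouse number as a block and leaving out each array.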

Additional observations from a re-analysis of the deposited data

Results flagged for a closer look

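Of 102 groups of 4 arrays (51 genes in 2 groups), 10 held a value far from the other 3, with a gap over 0.829 of the whole range, and chance flags about 1 in 20 such groups. In control tumour 1, Tnxb read 0.84 (others -1.64 to -1.35). In control tumour 2, Sparcl1 read 5.61 (others 4.43 to 4.61), Lama4 2.23 (1.60 to 1.66), Thbs4 -0.23 (-2.34 to -2.13) and, on the low side, Tnc -1.44 (-0.64 to -0.53). In control tumour 3, Fbn1 read 1.55 (others 1.28 to 1.31), which is farther from the PRH-labelled values than the others. In control tumour 5, Lama3 read 2.85 (others 0.94 to 1.19). In PRH-labelled tumour 2, Spp1 read 6.20 (others 6.09 to 6.10) and Matn2 0.74 (0.32 to 0.34), and in PRH-labelled tumour 5, Thbs3 read 0.79 (0.43 to 0.43).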

How the results depend on the processing

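The main counts were 2 of 51 matrix genes higher and 2 lower, and 5 and 2 of the related genes. The higher and lower counts of matrix genes became 1 and 17 (median centring), 4 and 6 (quantile), 4 and 5 (normexp), 3 and 4 (authors' values), 4 and 4 with probes above background on all arrays, 0 and 2 with the mean of probes, and 2 and 4 with the mouse number as a replicate block. Those of related genes were 2 and 12, 3 and 6, 2 and 4, 2 and 4, 5 and 4, 5 and 2, and 7 and 1. Named genes stood at 11.4% and 17% with probes above background on all arrays and at 9.36% and 12.5% with the mean of probes. Centring on 7 spike-in probes left 0 and 0 in both lists and 1 call among all 34543 items. It left 4 of the 51 at an unadjusted p under 0.05 (limma), beside 2587 of 16377 named genes. Leaving out single arrays gave 2 to 4 matrix genes higher and 1 to 5 lower. The counts were 4 and 5 without control 1, when Tnxb and Thbs3 joined the higher calls and Aspn, Lamb1 and Matn2 the lower ones. Without control 2, control 3 or any of PRH 1, 2 and 3, 1 was lower. The share of named genes moved too. It was 12.2% higher and 21.1% lower without control 1, and 6.61% to 8.54% lower in the fits that left 1 matrix gene lower. Related genes ran from 3 to 6 higher and 1 to 7 lower. The median difference of the 51 was -0.21 and moved to -0.67 with median centring. Median centring turned 15 of the 51 signs, all from positive to negative, among them Efemp2 (-0.040), Hspg2 (-0.069) and Lamb2 (-0.043), and spike-in centring turned 7. The block changed no call of Fbn1, Lox, Vcan or Ecm1. Median centring moves the difference of every gene by the same amount, for example Fbn1 from -0.88 to -1.35 and Vcan from 1.17 to 0.70. What lies behind the size of that move and behind the other shifts was not tested, and dim probes are limited by background.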
